A study of Mus musculus with 10 samples.

Results

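Secondary inducible mouse embryonic fibroblasts that had divided an average of 2 times during 96 h of doxycycline were compared with uninduced fibroblasts of the same kind that had been kept in serum starvation medium for 96 h. The comparison was defined by the array titles and used 4 of the 10 arrays of the study, 2 per group, paired by replicate number. The starved control cells received 0.5% fetal bovine serum and are labelled as uninduced. The cells of 2 divisions received 15% serum with doxycycline, labelled at 2 ug/ul. Both groups were 129/SvJ x C57/B6 hybrid cells, and all cells had been kept in standard growth medium with serum. The other 6 arrays, 2 per cohort, held induced cells whose average was 0 divisions, 1 division or at least 3, and entered the fit so that the groups shared an estimate of the spread. Division, serum and doxycycline all differed between the compared groups and cannot be told apart in this contrast. The labels do not say how cells of different division number were separated or how many animals the fibroblasts came from. The control arrays are labelled as biological replicates and those of 2 divisions only as replicates. The p-values rest on the spread within groups over all 10 arrays, after differences between replicate numbers were taken out. That spread may therefore be technical.

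Secondary inducible fibroblasts carry reprogramming transgenes that doxycycline switches on. They are derived from cells that were reprogrammed once before, so that nearly every cell can express the factors. The factors are Pou5f1, Sox2, Klf4 and Myc. In the early phase of reprogramming, fibroblasts are known to speed up their cell cycle, to lose matrix, contractile and mesenchymal gene expression and to gain epithelial genes, while most genes of the pluripotent state are switched on late and in few cells. Serum starvation holds fibroblasts in a resting state, and serum itself brings back growth and cell cycle genes.

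RNA was hybridised to Affymetrix mouse arrays. The deposited intensities were taken to log2, so a difference of 1 is a 2-fold difference in intensity. Probe sets with an adjusted p under 0.05 in a limma fit with the replicate number as a block were called. The fit without that block gave fewer calls, and its counts stand beside the main ones. Array medians of the deposited intensity lay between 31.4 and 33.95. The control arrays were registered together with those of 3 or more divisions, ahead of the remaining 6 arrays, which form a later set, so the set and the contrast between 2 divisions and control cannot be told apart. For Actb, the difference between 3' and 5' probe sets that follows RNA integrity was 0.26 on both control arrays and 0.46 and 0.50 at 2 divisions, and its part in the results was not tested. It was 0.49 and 0.50 at 3 or more divisions, in the same set as the control. On the axis that held 60.2% of the variance, replicate 1 of 2 divisions lay at 14.5 and replicate 2 at 5.5, between the control arrays at -60.7 and -48.7 and those of 3 or more divisions at 62.4 and 76.4. In each of the other 4 groups replicate 2 lay higher than replicate 1 on this axis, and at 2 divisions the order was the other way round.

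Fibroblast genes were bright in both groups. Col3a1, a fibrillar collagen, read 14.64 and 14.51 in the control and 14.54 and 14.43 at 2 divisions, a difference of -0.09 with an adjusted p of 0.744. Vim, the intermediate filament vimentin, read 14.28 and 14.21 against 14.40 and 14.37, and Prrx1 and Twist1, transcription factors of mesenchyme, were within 0.28 of their control means with no call. Pdgfra read 11.28 and 10.32 against 10.45 and 10.34 and was not called. Thy1, a surface protein used to follow the loss of fibroblast identity, read 10.68 and 11.37 in the control and 10.33 and 10.53 at 2 divisions. Its difference of -0.60 was not called, with an adjusted p of 0.156, although both arrays of 2 divisions lay below both control arrays. Of the 8 fibroblast markers, Col1a1 and Col1a2 were called lower, by -1.03 and -0.50. By these markers the cells of 2 divisions still carried the RNA of fibroblasts.

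Across the 34945 probe sets with 1 gene, 4567 were called, which is 13.1% of those tested. Of these, 2442 were higher and 2125 lower at 2 divisions, and 1501 differed by at least 2-fold. In all 4567, both replicate pairs moved in the same direction. A fit with the replicate block favours such probe sets, and their share among all probe sets was not counted. Without the block 1863 were called, 1115 higher and 748 lower, and all of these were also called with it. With the brightest probe set standing for each of 18193 genes, 1525 genes (8.38%) were called higher and 1092 (6.0%) lower, against 712 (3.91%) and 346 (1.9%) without the block. These shares of all genes are the background for the list counts below. The 2 arrays of one group did not overlap with those of the other in 2529 of the 2617 called genes. The background for such separation was 49.4% of all genes. The median change of called genes was 0.81 in size. The change was larger in replicate 1 for 908 of the genes called higher and for 723 of those called lower. Without replicate 1 of 2 divisions 1849 probe sets were called, without control replicate 1 there were 2403, and without control replicate 2 there were 2223.

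**Figure D1:**
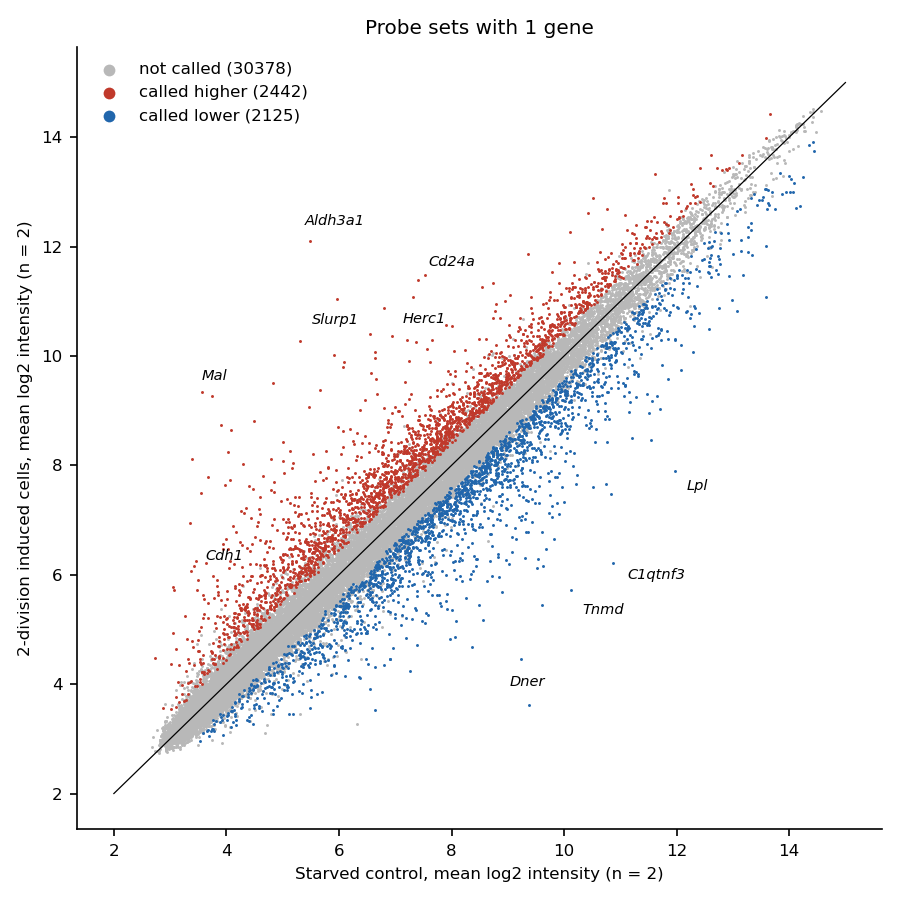
Mean log2 intensity of 34945 probe sets in the starved control (horizontal axis, 2 arrays) and at 2 divisions (vertical axis, 2 arrays), with the 2442 called higher in red, the 2125 called lower in blue and the diagonal marking equal levels. Aldh3a1, Mal and Slurp1 stand above the cloud, and Lpl, C1qtnf3, Tnmd and Dner below it.

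The 12 largest rises included genes of epithelia and of aldehyde and ester metabolism. Aldh3a1, an aldehyde dehydrogenase abundant in cornea and stomach, read 6.64 and 4.33 in the control and 12.54 and 11.65 at 2 divisions. The rise of 6.61 (SE 0.52, adjusted p = 0.000384) is 97.8-fold on the intensity scale, where dim control readings make the fold inexact. Ces1f, a carboxylesterase, read 3.95 and 3.18 against 9.65 and 9.03, a rise of 5.78 (SE 0.54, adjusted p = 0.000677). Both genes were dim in the control and bright in both arrays of 2 divisions. Mal, a membrane protein of apical sorting in epithelia and of myelin, read 3.74 and 3.76 against 9.99 and 8.55, a rise of 5.52. Slurp1, a secreted protein of stratified epithelia, read 5.41 and 5.22 against 11.08 and 9.47, a rise of 4.97. The ranking took only genes whose groups of arrays did not overlap, so that separation was set by the choice. In each of these genes replicate 1 of 2 divisions was the highest of the 4 arrays.

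Stmn2, a microtubule regulator best known in neurons, had the widest spread between control arrays of the large rises. It read 4.44 and 7.49 in the control and 11.16 and 10.93 at 2 divisions, a rise of 5.08 (SE 0.67, adjusted p = 0.00239). Crym, a thyroid hormone binding protein, read 3.48 and 3.29 against 7.21 and 9.03. Its rise of 4.74 was called with an adjusted p of 0.00151, but at 0.0554 it was not called without the block. Crym was the only one of the 12 largest rises with its call lost in that fit. Krt19, a keratin of simple epithelia, read 3.94 and 4.22 against 9.09 and 8.21, a rise of 4.57 (SE 0.29, adjusted p = 0.000254). Fetub, a protease inhibitor secreted by liver, rose by 4.32, and Lgr6, a receptor for R-spondins that marks stem cells of skin, by 4.21. The other probe set of Lgr6 was at 1.04 and was not called, with an adjusted p of 0.0803. Il1rn, the secreted antagonist of the interleukin 1 receptor, read 5.93 and 7.68 against 10.49 and 11.24, a rise of 4.06, and its other 2 probe sets rose by 3.43 and 3.85. Cd24a, a surface glycoprotein of epithelial and progenitor cells, read 7.10 and 7.69 against 11.54 and 11.24, a rise of 4.0. All 3 probe sets of Cd24a rose, by 4.0, 4.11 and 4.69.

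The 12 largest falls included genes known from fibroblasts, tendon and contractile cells. Dner, a transmembrane ligand of Notch, read 8.19 and 10.29 in the control and 4.03 and 4.88 at 2 divisions, a difference of -4.78 (SE 0.34, adjusted p = 0.000301). Lpl, the lipoprotein lipase that frees fatty acids from circulating lipid, read 11.89 and 12.06 against 7.27 and 8.53, a difference of -4.07 (SE 0.24, adjusted p = 0.000241), 16.8-fold lower. Lpl was bright in the control and its 2 control arrays differed little. Mfap4, a microfibril protein, read 9.08 and 10.15 against 5.78 and 6.54. Smoc2, a secreted matrix protein that binds calcium, read 10.66 and 10.84 against 7.38 and 7.96. Their differences were -3.46 and -3.08, and both calls held without the block. Kcne4, a potassium channel subunit, differed by -3.04, and Npr3, the clearance receptor of natriuretic peptides, by -3.07 with its other probe sets at -3.40 and -3.01.

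Several of the large falls were much deeper in replicate 1 than in replicate 2. C1qtnf3, a secreted protein of cartilage and fat, read 10.13 and 11.62 in the control and 4.80 and 7.63 at 2 divisions, so the 2 arrays of the later group were further apart than the control arrays. Its difference was -4.66 (SE 0.39, adjusted p = 0.000468), and without the block the adjusted p was 0.0756. Tnmd, tenomodulin of tendon, read 10.33 and 9.92 against 4.45 and 7.01, a difference of -4.40. Cthrc1, a secreted protein of activated fibroblasts, read 10.04 and 11.63 against 5.07 and 9.89. In replicate 1 it fell to near the dim end of the scale, and in replicate 2 it stayed bright. Slc1a6, a glutamate transporter, read 9.35 and 9.72 against 4.54 and 8.02. Cthrc1 and Slc1a6 were called with the block, at differences of -3.36 and -3.25, but not without it, and not without replicate 1 of 2 divisions, where the differences were -2.54 and -2.30 with adjusted p of 0.0697 and 0.0526. Ptprz1, a receptor phosphatase, ran the other way, with the deeper fall in replicate 2, from 7.20 and 9.91 to 4.63 and 5.70. Its difference of -3.39 was also not called without the block.

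**Figure D2:**
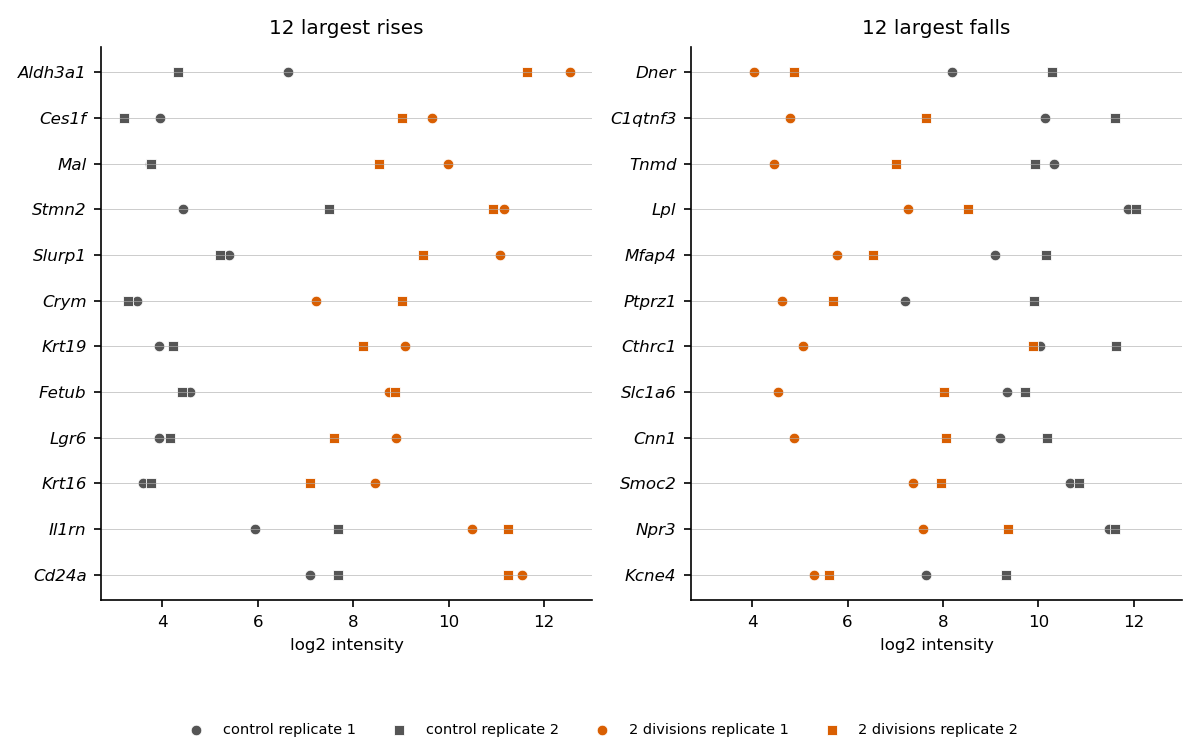
Log2 intensity on the 2 control arrays (grey) and the 2 arrays of 2 divisions (orange) for the 12 genes with the largest rises and the 12 with the largest falls, with circles for replicate 1 and squares for replicate 2. C1qtnf3, Tnmd, Cthrc1, Slc1a6 and Cnn1 have widely separated orange points, at 5.07 and 9.89 for Cthrc1.

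**Figure D3:**
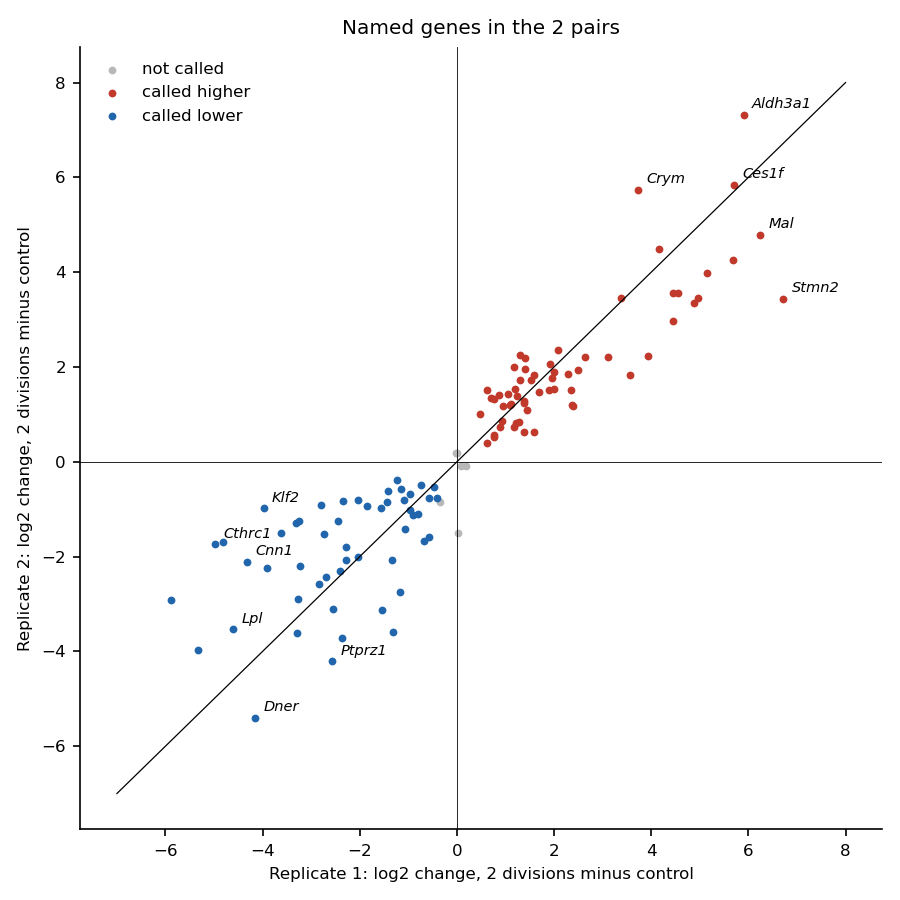
Change from control to 2 divisions in replicate 1 (horizontal axis, log2) and in replicate 2 (vertical axis, log2) for the 118 named genes, 112 of which were called, with the diagonal marking equal change. Crym, Dner and Ptprz1 changed more in replicate 2, and Stmn2, Mal, Cthrc1, Cnn1 and Klf2 more in replicate 1.

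The reprogramming factors differed from each other in direction. Pou5f1, the POU factor at the centre of the pluripotent state, read 3.92 and 3.61 in the control and 6.41 and 5.54 at 2 divisions, a rise of 2.21 (SE 0.30, adjusted p = 0.00253). Myc, the growth regulator, read 7.30 and 8.59 against 9.66 and 9.80, a rise of 1.79 with an adjusted p of 0.00289, but 0.0705 without the block. Sox2 read 4.10 and 3.55 against 4.10 and 3.74, near the dim end of the scale in both groups, with no call. Klf4 read 10.35 and 10.62 in the control and 9.60 and 10.14 at 2 divisions. Its brightest probe set was called lower by -0.62, with an adjusted p of 0.0456, and its other probe set at -0.45 was not. The Klf4 call was lost without the block and without each control array or replicate 1 of 2 divisions, where the adjusted p ran from 0.13 to 0.283. The labels do not say which of these probe sets can read a transgene, so transgene and resident transcripts cannot be told apart.

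Herc1 was higher in all induced cells alike. It encodes a giant ubiquitin ligase and read 6.94 and 6.93 in the control and 10.33 and 10.39 at 2 divisions, a rise of 3.42 (SE 0.12, adjusted p = 3.08e-05). A similar level was read in the other induced cells, from 10.18 to 10.61, and no difference between 2 divisions and the other induced cohorts was called. A dimmer probe set of the same gene rose by 2.86 and the dimmest was at -0.03, so the rise was not shared by all probes of the gene.

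No measured gene of the pluripotency network was called higher in the fit with the block, unlike Pou5f1. Of 30 measured genes of the pluripotency network, 0 were called higher and 2 were called lower, with a median change of -0.01. Of all genes 8.38% were called higher and 6.0% lower, with a median of 0.01. Such shares leave room for few calls among 30 genes, so the counts do not set the list apart. Nanog read 3.28 and 3.51 in the control and 3.36 and 3.43 at 2 divisions, a difference of 0.00 (SE 0.15). Fut4, which makes the SSEA-1 surface antigen, differed by 0.04, and Epcam, an epithelial surface protein of pluripotent cells, by 0.08. These genes read alike on all 4 arrays, at a level close to the dim end of the scale for Nanog and Fut4. The genes called lower were Klf2, a factor of naive pluripotent cells that fibroblasts also express, and Lefty1, an inhibitor of Nodal. Lefty1 lost its call without control replicate 2, replicate 1 or replicate 2 of 2 divisions, with an adjusted p of 0.19, 0.164 and 0.058. Klf2 read 9.23 and 9.05 against 5.25 and 8.06, differences of -3.98 in replicate 1 and -0.98 in replicate 2, and a fitted difference of -2.48. Without replicate 1 of 2 divisions it was -1.62 with an adjusted p of 0.115, and without control replicate 1 it was -1.47 with 0.0702. Both calls were lost without the block.

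Part of the epithelial program was raised and part was not. Of 31 measured genes of epithelial junctions and polarity 6 were called higher and 0 lower, 4 without the block, and the median change was 0.08. The called genes belonged to adhesion and to the simple epithelial cytoskeleton. Cdh1, the cadherin of epithelial adherens junctions, read 3.23 and 3.52 in the control and 6.78 and 5.35 at 2 divisions, a rise of 2.69 (SE 0.38, adjusted p = 0.00304). Dsp, the desmosomal plaque protein, read 5.56 and 6.60 against 10.01 and 9.57, a rise of 3.71, and its other probe sets rose by 3.61 and 1.54. Krt8, a simple epithelial keratin, read 4.87 and 4.81 against 7.98 and 7.03, a rise of 2.66. For each of these genes both arrays of 2 divisions lay above both control arrays, and for Cdh1 and Krt8 replicate 1 was the higher. The tight junction genes of the list, such as Cldn3, Cldn4, Cldn7 and Ocln, and the epithelial splicing factors Esrp1 and Esrp2 were not called.

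Genes of stratified epithelium showed the same mixture. Of 22 measured keratinocyte genes 8 were called higher and 0 lower, 6 without the block, with a median of 0.33, and 5 were called without control replicate 1. Krt16, a keratin of activated keratinocytes, read 3.59 and 3.76 in the control and 8.47 and 7.10 at 2 divisions, a rise of 4.11 (SE 0.43, adjusted p = 0.00101). Krt14, a keratin of basal cells, read 4.26 and 4.70 against 8.19 and 6.94, a rise of 3.08. Its other probe sets were split, with a rise of 2.58 in one and a difference of -0.16 in the other. Lgals7, a galectin of stratified epithelia, read 5.05 and 5.35 against 7.35 and 7.19, a rise of 2.07. All these genes were low in the control. The defining basal genes Krt5 and Trp63 and the genes of the cornified layer, Lor, Ivl and Sprr1a, were not called. The summed intensity of the 22 genes was 999 and 1123 in the control and 5791 and 2945 at 2 divisions.

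**Figure D4:**
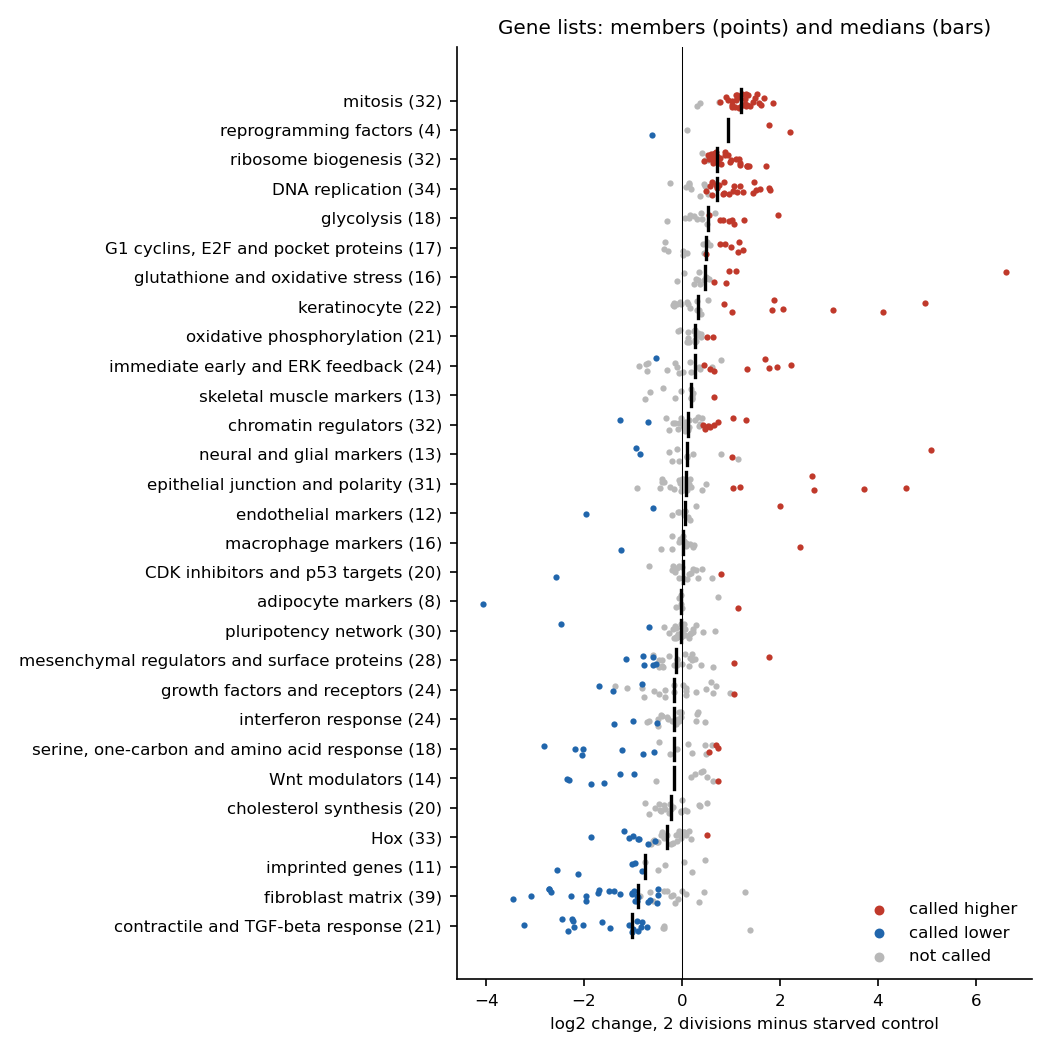
Log2 change from control to 2 divisions (horizontal axis) for the measured members of 29 gene lists, with their number in brackets, red and blue points for members called higher and lower, grey for those not called, and a black bar at the list's median. Mitosis has the highest median at 1.20, and the contractile and TGF-beta list the lowest at -1.02.

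Genes of cell growth and division were higher at 2 divisions in most cases. Of 32 measured genes of ribosome biogenesis 29 were called higher and 0 lower, with a median of 0.72, and the arrays of the groups were apart in all 32. Without the block 17 were called. Without control replicate 1 the count was 17, without control replicate 2 it was 18 and without replicate 1 of 2 divisions 14. Dkc1, the pseudouridine synthase of the box H/ACA particles and of telomerase, read 8.61 and 8.60 in the control and 10.21 and 10.43 at 2 divisions, a rise of 1.71 (SE 0.11, adjusted p = 0.000254). All 3 of its probe sets rose, by 1.45 to 1.71. Polr1b, a subunit of RNA polymerase I, read 6.29 and 6.45 against 7.66 and 7.73, a rise of 1.33, and Wdr12, a factor of large subunit maturation, rose by 1.32. Nop56, a core protein of the box C/D particles, read 9.31 and 9.55 against 10.49 and 11.09. Its rise of 1.36 had an adjusted p of 0.00317 with the block and 0.0762 without it.

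Of 34 measured DNA replication genes 22 were called higher and 0 lower, with a median of 0.72, and 13 without the block. This count fell to 8 without control replicate 2, to 8 without replicate 1 of 2 divisions and to 14 without replicate 2 of 2 divisions. Tk1, thymidine kinase, read 6.80 and 5.82 in the control and 8.20 and 8.0 at 2 divisions, a rise of 1.79 (SE 0.23, adjusted p = 0.002). Mcm5, a subunit of the replicative helicase, read 7.51 and 6.91 against 8.80 and 8.64, a rise of 1.51. Mcm6, another subunit, read 8.89 and 7.65 against 10.07 and 9.66, a rise of 1.59 with an adjusted p of 0.00797. In all 3 genes control replicate 2 was the lowest of the 4 arrays. Mcm6 was not called without the block, without control replicate 2, at 1.15 with an adjusted p of 0.0561, or without replicate 1 of 2 divisions, at 1.67 with 0.0511.

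Mitosis had the highest median of all 29 lists, at 1.20. Of 32 measured genes 29 were called higher and 0 lower, 23 of them without the block, and the groups were apart in all 32. Anln, the actin binding anillin of the cleavage furrow, read 8.24 and 8.25 in the control and 10.20 and 10.01 at 2 divisions, a rise of 1.86 (SE 0.17, adjusted p = 0.000683). Bub1b, a kinase of the spindle checkpoint, read 6.10 and 5.68 against 7.50 and 7.63, a rise of 1.67. Espl1, the protease separase that parts sister chromatids, rose by 1.62, and Ect2, an exchange factor for cytokinesis, by 1.58. These 4 genes kept their call without the block. In the list of G1 cyclins, E2F factors and pocket proteins 7 of 17 were called higher and 0 lower, 5 without the block. Ccne1 and Ccne2, the E cyclins that start S phase, rose by 1.16 and 1.14, and E2f8, a repressor that peaks in S phase, by 1.24. The other probe set of E2f8 was at -0.03 with no call. Of 20 measured CDK inhibitors and p53 targets 1 was called in each direction, beside 8.38% higher and 6.0% lower of all genes. Bbc3, a p53 target that promotes cell death, rose by 0.81, but was not called without control replicate 1, at 0.70 with an adjusted p of 0.0557, and 2 members were called higher without control replicate 2. Cdkn1c, the inhibitor p57, read 10.83 and 9.61 against 7.20 and 8.10, a difference of -2.57 with an adjusted p of 0.0116. It was not called without the block or without control replicate 1, where it was -2.25 with an adjusted p of 0.0853.

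Promoters from the 3 growth lists are shown because most measured members of each list were called higher. They were taken from RefSeq on build GRCm38.p6 and run from 250 bases before to 50 bases after the start of transcription, 5′ to 3′ on the gene's strand. The motifs were searched on both strands and matches at the same place on both strands were counted once. Capitals mark the matches to the named motif alone. The promoter of Mcm6, at chr1:128359656-128359955 on the minus strand, holds 2 copies of the E2F site TTTGGCGC. The promoter of Anln, at chr9:22389157-22389456 on the minus strand, holds the CHR element TTTGAA, known from cell cycle genes that peak in mitosis, once on each strand. The promoter of Bub1b, at chr2:118597961-118598260 on the plus strand, holds a CCAAT box on the opposite strand, read here as ATTGG. The promoter of Nop2, a ribosomal RNA methyltransferase that rose by 0.97, is at chr6:125131633-125131932 on the plus strand and holds the E-box CACGTG, a sequence that Myc can bind.
Mcm6: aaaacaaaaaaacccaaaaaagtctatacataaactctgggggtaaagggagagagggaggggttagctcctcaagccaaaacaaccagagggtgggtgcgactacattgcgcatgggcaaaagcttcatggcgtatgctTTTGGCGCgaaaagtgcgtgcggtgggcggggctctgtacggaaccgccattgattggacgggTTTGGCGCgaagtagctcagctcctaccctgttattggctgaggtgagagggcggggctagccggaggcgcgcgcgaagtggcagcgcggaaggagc
Anln: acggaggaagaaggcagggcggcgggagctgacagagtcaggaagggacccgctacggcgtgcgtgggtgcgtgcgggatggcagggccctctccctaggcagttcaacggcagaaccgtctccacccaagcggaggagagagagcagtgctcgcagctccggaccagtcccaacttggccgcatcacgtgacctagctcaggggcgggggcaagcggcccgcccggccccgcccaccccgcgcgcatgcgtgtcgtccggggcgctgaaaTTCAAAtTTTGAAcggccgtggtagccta
Bub1b: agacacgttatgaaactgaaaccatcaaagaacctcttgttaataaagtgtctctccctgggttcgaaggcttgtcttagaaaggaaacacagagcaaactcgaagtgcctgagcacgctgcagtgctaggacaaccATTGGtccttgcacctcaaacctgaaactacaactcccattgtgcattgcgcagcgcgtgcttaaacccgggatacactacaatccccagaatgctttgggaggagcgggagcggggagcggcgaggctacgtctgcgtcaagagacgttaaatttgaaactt
Nop2: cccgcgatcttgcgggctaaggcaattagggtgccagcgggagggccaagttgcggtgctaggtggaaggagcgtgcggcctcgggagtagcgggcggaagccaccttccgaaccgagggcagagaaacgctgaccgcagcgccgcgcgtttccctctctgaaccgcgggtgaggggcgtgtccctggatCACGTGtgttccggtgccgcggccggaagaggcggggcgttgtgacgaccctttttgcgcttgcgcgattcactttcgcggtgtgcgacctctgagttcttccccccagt
The site TTTGGCGC was in 5 of 33 promoters of the DNA replication genes, or 15.2%, against 0.514% of all 32851 promoters. A related E2F site, TTTCCCGC, was in 15.2% of them against 1.07% of all. For the mitosis genes TTTGAA was in 21 of 28 promoters, or 75%, against 17.9% of all, and CCAAT was in 75% against 37.4%. For the ribosome biogenesis genes CACGTG was in 6 of 28, or 21.4%, against 7.15%. Lists with few or no calls were searched too. With N for any base, GAAANNGAA was in 45.8% of promoters of the interferon response genes against 8.56% of all. For the cholesterol synthesis genes TCACNCCAC was in 5.26% against 1.24%. These shares describe the letters of the promoters and were not tested, and a gene can have several promoters in the table.

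Matrix genes were lower in most cases. Of 39 measured genes of the fibroblast matrix 25 were called lower and 0 higher, with a median of -0.90, and 12 were called without the block. Without control replicate 1, control replicate 2 or replicate 1 of 2 divisions the count was 14, 14 and 13. Beside Mfap4 and Smoc2, the elastic fibre protein Eln read 10.88 and 11.53 in the control and 8.04 and 8.95 at 2 divisions, a difference of -2.71 (SE 0.32, adjusted p = 0.00149). Col8a2, a network collagen, read 9.77 and 9.79 against 6.54 and 7.58, a difference of -2.72. Both stayed called without the block. Col1a1, the major fibrillar collagen chain, read 13.91 and 14.13 against 12.32 and 13.66, with an adjusted p of 0.0465 close to the threshold and most of the difference in replicate 1. Fn1, like Col3a1, was not called.

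The contractile and TGF-beta response genes had the lowest median of all lists at -1.02, and their calls depended on the pairing. Of 21 measured genes 17 were called lower and 0 higher with the block, and 1 without it. Without control replicate 1 the count was 11 and without replicate 1 of 2 divisions it was 8. Cnn1, the calponin of smooth muscle, read 9.19 and 10.18 in the control and 4.87 and 8.07 at 2 divisions, a difference of -3.22 (SE 0.47, adjusted p = 0.00338) with the block and an adjusted p of 0.263 without it. Tagln, an actin binding protein of the same cells, read 12.74 and 13.40 against 9.48 and 12.16, a difference of -2.25. Without replicate 1 of 2 divisions it was -1.63 and not called, with an adjusted p of 0.0553. Myh11, smooth muscle myosin, ran differently, from 5.54 and 7.76 to 4.0 and 4.63, with the larger fall in replicate 2. Its difference of -2.33 was not called without control replicate 2, at -1.97 with an adjusted p of 0.0559. In every group replicate 2 read higher than replicate 1 for Cnn1, Tagln and Myh11.

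Of 28 measured mesenchymal regulators and surface proteins 6 were called lower and 2 higher, and 0 and 1 without the block. No EMT factor of the list, Snai1, Snai2, Twist1, Twist2, Zeb1 or Zeb2, was called. Cd44, the receptor of hyaluronan, was among the genes called higher. It read 9.46 and 10.38 in the control and 11.84 and 11.56 at 2 divisions, a rise of 1.78 (SE 0.29, adjusted p = 0.00534). S100a4, a calcium binding protein also called fibroblast-specific protein, read 13.18 and 12.04 against 13.79 and 13.55 and rose by 1.07. Its call was lost without the block and without replicate 2 of 2 divisions, at 0.91 with an adjusted p of 0.0711. Without control replicate 1, control replicate 2 or replicate 1 of 2 divisions 1, 1 and 0 members of the list were called lower.

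Of 33 measured Hox genes, which keep the body position of fibroblasts, 8 were called lower and 1 higher with the block and 0 without it, and 2, 1 and 3 were lower without control replicate 2, replicate 1 and replicate 2 of 2 divisions. The higher count was 0 without any 1 of the 4 arrays. Hoxc8 read 7.33 and 8.99 in the control and 4.87 and 7.74 at 2 divisions, a difference of -1.85 (SE 0.25, adjusted p = 0.00249). Replicate 2 of 2 divisions lay above control replicate 1, so the groups overlapped. Across all 10 arrays replicate 1 of Hoxc8 lay between 4.44 and 7.33 and replicate 2 between 6.80 and 8.99. Of 11 measured imprinted genes 5 were called lower and 0 higher, 3 without the block, with a median of -0.75, and 3 and 2 without control replicate 2 and replicate 1 of 2 divisions, each with 1 then higher. Dlk1, an inhibitor of fat cell formation, read 11.35 and 11.68 against 8.65 and 9.26, a difference of -2.56. Its calls were lost without control replicate 2, at -2.12 with an adjusted p of 0.0569, and without replicate 1 of 2 divisions, at -1.95 with 0.0586. Ndn, the growth suppressor necdin, read 12.63 and 12.56 against 11.54 and 11.74, a difference of -0.95 that was called in both fits.

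Of 18 measured glycolysis genes 8 were called higher and 0 lower, 3 without the block, with a median of 0.53, and 5, 5 and 4 were called without control replicate 1, control replicate 2 and replicate 1 of 2 divisions. Slc16a1, a lactate transporter, read 7.52 and 6.84 in the control and 9.52 and 8.74 at 2 divisions, a rise of 1.95 (SE 0.19, adjusted p = 0.000726). Pkm, pyruvate kinase, read 10.79 and 11.28 against 12.01 and 12.10, a rise of 1.02 with an adjusted p of 0.00461, but 0.0593 without the block. Of 21 measured genes of oxidative phosphorylation 2 were called higher and 0 lower, and 0 higher without either control array or without replicate 1 of 2 divisions. For comparison, 8.38% of all genes were called higher and 6.0% lower. Of 20 measured genes of cholesterol synthesis 0 were called in either direction, with a median of -0.23. Without replicate 1 of 2 divisions 4 were called lower, and without replicate 2 of 2 divisions 1 was called higher. Their summed intensity was 9660 in the control and 11918 at 2 divisions in replicate 1, and 13009 and 7050 in replicate 2. Fdps, the member with the largest difference, was at -0.75 with an adjusted p of 0.209. In the glutathione and oxidative stress list 5 of 16 were called higher and 0 lower, led by Aldh3a1, with 2 without the block, 2 without replicate 1 of 2 divisions and 3 without control replicate 1 or replicate 2 of 2 divisions. Gclc, the limiting enzyme of glutathione synthesis, read 9.06 and 9.16 against 9.99 and 10.03, a rise of 0.90 (SE 0.11, adjusted p = 0.00157).

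Several genes of the amino acid response were lower at 2 divisions than in the control. In a list of 18 measured genes of serine and folate metabolism and the amino acid response 7 were called lower and 3 higher, 3 and 1 without the block, with a median of -0.17. Without replicate 1 of 2 divisions 4 were called lower and 0 higher, and without control replicates 1 and 2 the higher count was 1 and 0. Trib3, a pseudokinase induced by amino acid lack, read 9.08 and 10.13 in the control and 6.52 and 7.03 at 2 divisions, a difference of -2.83 (SE 0.39, adjusted p = 0.00266). Aldh1l2, a mitochondrial folate enzyme, read 9.32 and 9.53 against 7.03 and 7.72, a difference of -2.05. Mthfd2, another, read 9.46 and 9.99 against 7.43 and 7.99, a difference of -2.02. Both arrays of 2 divisions lay below both control arrays for each gene, and the call of Mthfd2 was lost without the block at an adjusted p of 0.057. The cytosolic and mitochondrial folate enzymes Mthfd1 and Mthfd1l of the same list were called higher, by 0.70 and 0.74.

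Mthfd2 and Aldh1l2 had their lowest group mean at 2 divisions. Mthfd2 read 8.96 and 9.70 at 0 divisions, 7.48 and 9.05 at 1, and 9.50 and 9.87 at 3 or more. Against 3 or more divisions, arrays of the same set as the control, it was lower by 1.98 at 2 divisions with an adjusted p of 0.00315. Against 0 divisions, arrays of the same set as those of 2 divisions, its difference was -1.62 with an adjusted p of 0.0282. Aldh1l2 read 8.80 and 9.01 at 0 divisions and 8.74 and 8.83 at 3 or more, and both differences from 2 divisions were called, with adjusted p of 0.0323 and 0.00782. Trib3 was called against 3 or more divisions, with a difference of 1.48 and an adjusted p of 0.0337, but against 0 divisions its adjusted p was 0.0802. Of the 18 genes 15 were higher at 3 or more divisions than at 2, and 0 lower, beside 9.23% and 8.14% of all genes.

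Targets and feedback regulators of ERK signalling, the kinase pathway that serum growth factors switch on, included several rises. Of 24 measured immediate early and ERK feedback genes 8 were called higher and 1 lower, 5 and 1 without the block, and 5 were higher without control replicate 2 or without replicate 2 of 2 divisions. The lower count ran from 0 to 3 with each array left out. Fosl1, an AP-1 factor, read 5.87 and 5.45 in the control and 7.94 and 7.81 at 2 divisions, a rise of 2.22 (SE 0.18, adjusted p = 0.000409). Dusp6, the phosphatase that turns ERK off, read 6.82 and 7.43 against 8.83 and 8.97, a rise of 1.77. Egr3, a zinc finger factor, read 7.09 and 7.03 against 9.45 and 8.54, a rise of 1.93, while its dimmer probe set was at -0.33 with no call. Dusp6 and Egr3 also had their extreme near 2 divisions. At 3 or more divisions Dusp6 read 7.97 and 7.91 and Egr3 7.93 and 7.65, with differences from 2 divisions of -0.96 and -1.21 and adjusted p of 0.00665 and 0.0131. Ereg, the EGF receptor ligand epiregulin, rose by 1.07 against the control and differed by -0.93 between 2 and 3 or more divisions. The rise of Ereg was not called without control replicate 2, at 0.81 with an adjusted p of 0.0892, or without replicate 1 of 2 divisions, at 0.95 with 0.0911.

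Among 24 measured growth factors and receptors Ereg was the 1 called higher, and Nrg1, Hgf and Lifr were called lower, 1 and 2 without the block, and 1 was lower without replicate 1 of 2 divisions. The higher count ran from 0 to 3 with each array left out. Hgf was not called without replicate 1 or 2 of 2 divisions, with an adjusted p of 0.123 and 0.0544, and Lifr not without control replicate 1, control replicate 2 or replicate 1 of 2 divisions, with 0.0666, 0.133 and 0.148. Over all genes the shares called were 8.38% higher and 6.0% lower. Nrg1, a ligand of the ERBB receptors, read 6.91 and 7.36 in the control and 5.57 and 5.29 at 2 divisions, a difference of -1.70 (SE 0.23, adjusted p = 0.00246). Of 14 measured Wnt modulators 6 were called lower and 1 higher, 2 and 1 without the block, and without control replicate 1 and replicate 1 of 2 divisions the lower calls were 2 and 1, and without either array of replicate 2 the higher count was 0. Lgr5, a receptor for R-spondins and relative of Lgr6, read 9.92 and 10.02 against 7.51 and 7.71, a difference of -2.36 (SE 0.19, adjusted p = 0.000384), while Lgr6 rose. The dimmer probe set of Lgr5 was at -0.16 with no call, and that of Lgr6 at 1.04, also with no call. Of 24 measured interferon response genes 3 were called lower and 0 higher, with 1 without the block. All 3 lost their call without at least 3 of the 4 compared arrays in turn, so the list gave no stable difference.

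Among 32 measured chromatin regulators 8 were called higher and 2 lower, 3 and 0 without the block, and the counts were 2 or 3 higher and 0 or 1 lower without any one of the 4 arrays. Hells, a remodeler of replicating chromatin, read 5.95 and 5.68 in the control and 7.18 and 7.07 at 2 divisions, a rise of 1.31 (SE 0.18, adjusted p = 0.00278). Its other probe sets, at 0.41 and 0.20, were not called. Ezh2, the methyltransferase of Polycomb complex 2, read 7.19 and 6.67 against 7.96 and 7.99, a rise of 1.04. Tet1, a dioxygenase that oxidises methylcytosine in DNA, read 7.11 and 6.44 against 5.54 and 5.47. Its difference of -1.27 was not called without the block, without control replicate 1, at -1.09 with an adjusted p of 0.0801, or without replicate 1 of 2 divisions, at -1.08 with 0.0903.

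Markers of other cell types gave single called genes and no list that moved as a whole. The background was 8.38% of all genes called higher and 6.0% called lower. Of 16 macrophage markers 1 was called in each direction, and the summed intensity was 416 and 411 in the control and 514 and 411 at 2 divisions. Cd68, a lysosomal protein of macrophages that other cells also make, rose by 2.42, while Csf1r, Adgre1, Itgam and Ptprc were not called. Of 12 endothelial markers Tek, the receptor of angiopoietins, rose by 1.99, and Flt1 and Kdr were called lower, while Pecam1 and Cdh5 were not called. Of 13 neural and glial markers Stmn2 and Syt1 were called higher and Gap43 and Map2 lower. Their summed intensity was 1794 and 1726 against 3430 and 3109. The higher sum came from Stmn2, which had the largest change of this list at 5.08. Of 8 adipocyte markers Lpl was called lower and Pparg higher, and Adipoq and Fabp4 were not called. Of 13 skeletal muscle markers Tnni1 was called higher, by 0.66. Syt1, Gap43, Map2, Kdr, Flt1 and Tnni1 each lost the call of their brightest probe set without at least 1 of the 4 arrays. With all arrays, the other probe sets of Map2, from -1.06 to -2.06, and of Flt1, from -1.27 to -2.41, were also called lower. Those of Syt1 were not called. Without control replicate 2 the adjusted p was 0.0852 for Syt1, 0.0699 for Gap43, 0.0989 for Map2 and 0.124 for Kdr, without replicate 2 of 2 divisions it was 0.057 for Flt1, and without replicate 1 of 2 divisions 0.0552 for Tnni1. In bulk RNA fewer cells of a type and less RNA per cell cannot be told apart, which holds for each result here. No marker was listed at 0 in this table, which holds values for every probe set and no detection calls.

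The other induced cohorts show where the cells of 2 divisions stood. Against 1 division 0 probe sets were called, 0.0% of those tested, with 1877 at an unadjusted p under 0.05 in limma, and the fit without the block also called 0, with 916. Against 0 divisions 342 probe sets were called, 0.979%, and 16 without the block. Of genes, 134 (0.737%) were higher at 2 divisions than at 0 and 65 (0.357%) lower. Against 3 or more divisions 5371 probe sets were called, 15.4%, but those arrays lie in the other set, so set and division number cannot be told apart there. Of genes, 1679 (9.23%) were higher and 1481 (8.14%) lower at 3 or more divisions. Without replicate 1 of 2 divisions 24 probe sets were called against 0 divisions, and without replicate 2 of 2 divisions 41 were called against 1 division and 1141 against 3 or more.

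Genes differed in whether their change from control was already present in undivided induced cells. Aldh3a1, Krt19 and Cdh1 were higher at 2 divisions than at 0. Aldh3a1 read 8.41 and 7.72 at 0 divisions and 9.94 and 10.58 at 1, and was higher at 2 than at 0 by 4.03 with an adjusted p of 0.0168. Krt19 read 5.37 and 5.60 at 0 divisions and was higher at 2 by 3.17, with an adjusted p of 0.00818. Cdh1 read 3.64 and 4.06 at 0 divisions and was higher at 2 by 2.22, with an adjusted p of 0.039. At 3 or more divisions Cdh1 read 9.19 and 9.42, higher than at 2 by 3.24, while Aldh3a1, at 12.92 and 12.58, and Krt19, at 9.62 and 9.23, were not called different from 2 divisions. Of the 31 genes of epithelial junctions 4 were called higher at 2 divisions than at 0, and of the 24 immediate early and ERK feedback genes 3. Of all genes 0.737% were called higher in this comparison. Over all probe sets its calls fell from 342 to 16 without the block and to 4 with a floor of 16. Which of the genes named here kept their call in those fits was not examined.

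Growth genes were not called different between 2 and 0 divisions. In the ribosome biogenesis, DNA replication and mitosis lists 0 genes were called between 2 and 0 divisions in either direction. Of all genes only 0.737% were called higher and 0.357% lower in this comparison, so counts of 0 do not set these lists apart. The medians of the lists were 0.05, 0.10 and 0.14 beside 0.01 for all genes. Dkc1 read 10.01 and 10.15 at 0 divisions against 10.21 and 10.43 at 2, and Bub1b 7.19 and 7.01 against 7.50 and 7.63. At 3 or more divisions 29 of 32 ribosome biogenesis genes were called higher than at 2, and 11 of 32 mitosis genes, beside 9.23% of all genes. Pou5f1 read 6.12 and 5.40 at 0 divisions and 7.64 and 8.23 at 3 or more, with a called difference of 1.96 between 2 and 3 or more. Among falls, Lpl was lower at 2 divisions than at 0 by 1.88, with an adjusted p of 0.0157, while Dner read 4.93 and 5.73 at 0 divisions, with no called difference from 2 divisions. Smoc2 and Cnn1 were not called against 0 divisions, with adjusted p of 0.0559 and 0.056.

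**Figure D5:**
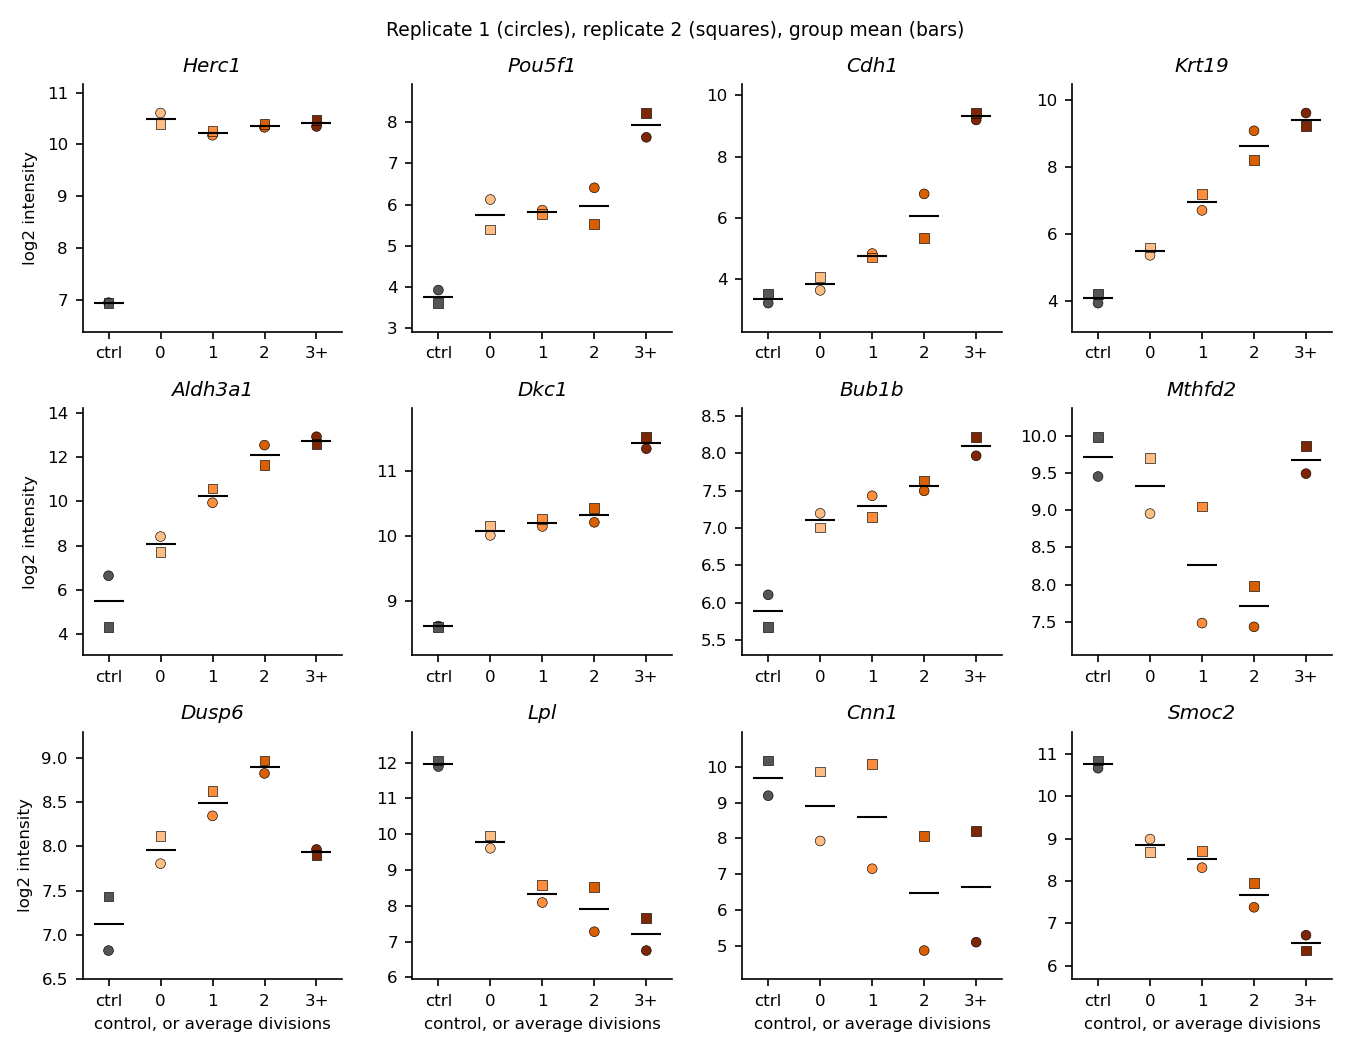
Log2 intensity of 12 genes on all 10 arrays, for the starved control and for induced cells by average number of divisions (horizontal axis), with circles for replicate 1, squares for replicate 2 and bars for group means. Herc1 is level across induced cells, Cdh1, Krt19 and Aldh3a1 are higher in each later cohort, Mthfd2 has its lowest and Dusp6 its highest mean at 2 divisions, and the 2 replicates of Cnn1 are far apart in every induced cohort.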

How the data were processed

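Total RNA from 10 samples was measured on single-colour arrays. Per the submitters' processing notes RMA, which summarises probes on a log scale, is named for 4 arrays, those of the control and of 3 or more divisions. For the other 6 no tool is given in the sources used here, and neither is a genome build. The deposited table holds linear intensity values for 45101 probe sets, from 5.7 to 26572. They were taken to log2 and quantile normalized over the 10 arrays. Of the probe sets, 34945 had 1 gene in the platform's gene table and 34754 of these were found in RefSeq by gene ID. A gene was read from its brightest probe set by the mean of all 10 arrays. Some named genes, among them Bub1b, Mcm5, Mcm6, Wdr12 and Slc16a1, also had a dimmer probe set that was not called.

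A limma 3.58.1 model (R 4.3.3) with 5 groups and the replicate number as a block, which left 4 residual degrees of freedom, was fitted to all 34945 probe sets, and two-sided p-values were adjusted by Benjamini-Hochberg over all of them. A call is an adjusted p under 0.05. The code was tested on simulated data. The comparison was defined as paired by replicate number. Arrays of the same number deviated together from the means of their groups, with r of 0.47 between control and 2 divisions. Over all 10 pairs of groups r ran from 0.433 to 0.846. These r were taken only over probe sets whose mean on the 10 arrays was above the median. The labels state no shared culture.

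Members and lists were chosen with earlier results of these data known. Named are 11 set genes, the 12 largest rises and falls among called genes whose groups did not overlap, up to 4 called members of each list by size, and the largest member where none was called. Col1a1, Col1a2, Col3a1, Vim, Prrx1, Twist1 and Pdgfra are named as cell type markers, and Nop2 by the rule for promoters. That rule took called list members whose promoter holds the named motif. The presence of the motif in the printed promoters of Mcm6, Anln, Bub1b and Nop2 was therefore set by the choice and is not a result. How common a motif is can be read only from the shares over all promoters of a list. Further list members, such as Mthfd1 and Mthfd1l, were singled out after their values were seen. List genes that the table lacks were not analysed here. Per-array values are levels, not comparable between genes. The alternatives left out each compared array, the block, the normalization and the other groups, or set a floor or pseudocount of 16. The number of arrays limits the precision.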

Additional observations from a re-analysis of the deposited data

Results flagged for a closer look

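A total of 342 probe sets were called between 2 and 0 divisions, so the difference from the control differed in size between these induced cohorts. By the same test 5371 probe sets were called between 3 or more divisions and 2, across the 2 sets of arrays. Among the 9160 probe sets that the platform's gene table does not list, 262 were called between 2 divisions and control. Among the 932 probe sets with several genes, 56 were called. No group held enough arrays to look for single arrays that stood apart.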

How the results depend on the processing

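Called probe sets against the control numbered 4567 (2442 higher, 2125 lower, 1501 at least 2-fold), with 242 calls over the lists, 342 against 0 divisions, 0 against 1 and 5371 for 3 or more against 2. Without the replicate block they were 1863 (1115, 748, 905), with 118 over the lists, 16 against 0 divisions and 1419 for 3 or more against 2, and all 1863 were among the 4567. A floor of 16 gave 2602 (1457, 1145, 816), 114, 4 and 3001, and a pseudocount of 16 gave 198 against 0 divisions. The 4 compared arrays alone gave 3443 with the block and 113 without it (78, 35, 113, lists 13). One probe set per gene gave 2827, 1169 lower, 925 at least 2-fold, 205 against 0 divisions and 3449, over fewer tests. Leaving out each compared array gave 1849 to 3632 called (985 to 1991 higher, 864 to 1641 lower, 1059 to 1809 at least 2-fold), 123 to 200 over the lists, 24 to 408 against 0 divisions, 0 to 41 against 1 and 1141 to 5073 for 3 or more against 2. A lone array was then assumed to vary like the other groups. Reversed signs were confined to genes with no call. Nanog was -0.018 as deposited and -0.00096 with the pseudocount, Sox2 -0.00021 with the floor. Leaving out arrays, Nanog ranged from -0.067 to 0.067, Fut4 from -0.073 to 0.16, Sox2 from -0.16 to 0.35 and Epcam from -0.059 to 0.22. Of the 112 called named genes, 68 kept their call when each compared array was left out. Of the same 112 genes, 49 lost their call with the floor of 16 and 49 without the block. With the 4 compared arrays alone and no block, 94 lost it. Median centring, the deposited scale, trend and robust eBayes and leaving out the arrays of 3 or more divisions kept each total within 1.5 times. Except for the construction of each alternative, the cause of these differences was not tested. Dim genes lack detection calls, so their folds are imprecise.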

Other observations

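Genes ranked just after the 12 largest changes by the same ordering, and outside the lists, included further secreted and surface proteins. They were chosen after their values were seen. Msln, the surface protein mesothelin of mesothelium, read 3.51 and 3.58 in the control and 8.23 and 6.76 at 2 divisions, a rise of 3.95 (SE 0.50, adjusted p = 0.00192). Prg4, the lubricating protein of joint surfaces, read 7.69 and 6.95 against 11.67 and 10.46, a rise of 3.74. Pcolce2, an enhancer of procollagen processing, read 6.55 and 5.62 against 10.40 and 9.37 and rose by 3.80. Gch1, the first enzyme of tetrahydrobiopterin synthesis, read 5.38 and 4.62 against 8.46 and 8.38, a rise of 3.42. Each of these 4 genes was also called without the block. In each both arrays of 2 divisions lay above both control arrays, which the ordering required.

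Among the next falls, Adamts9, a secreted protease of matrix proteoglycans, read 10.04 and 9.78 against 6.86 and 7.37, a difference of -2.80 (SE 0.28, adjusted p = 0.000872). St8sia2, which adds polysialic acid to the neural cell adhesion molecule, read 9.05 and 8.22 against 5.59 and 6.20, a difference of -2.74. Htr1b, a serotonin receptor, read 7.68 and 9.76 against 4.98 and 6.96, with a difference of -2.75 in the paired fit and no call without the block at an adjusted p of 0.177. For Htr1b the 2 replicates of each group stood about as far apart as in the other group.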
